A study of Caenorhabditis elegans with 45 samples.

Results

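FEM worms on days 4 and 5 were set against FEM worms on day 3. The question was which transcripts shift in an animal described as lacking oocytes as it ages through early adulthood. The comparison held 10 of the 45 libraries of the series: 4 from days 4-5, with 2 each from 117 h and 137 h after arrested L1 larvae were fed, and 6 from day 3, with 3 each from 89 h and 97 h. FEM is the strain fem-3(q20), a gain-of-function allele on chromosome IV that masculinizes the hermaphrodite germline at the restrictive temperature of 25°C. The worms are described as making sperm and no oocytes and as sterile with a normal somatic gonad. All 10 libraries were of this strain and temperature, were fed HT115 Escherichia coli carrying the empty L4440 vector, and were made from whole worms collected in bulk. The same ages of GEM, gon-2(q388); gem-1(bc364), whose gonad fails to develop in most but not all animals, were used for the same contrast in a second strain and for the test of whether a change differed between strains, with 4 libraries on days 4-5 and 5 on day 3. Because the worms were sequenced whole, fewer cells of a type and less RNA per cell cannot be told apart.

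Adult worms do not molt, and the epidermis that built the adult cuticle also secretes caenacins and neuropeptide-like peptides with antimicrobial activity. The intestine takes up food, breaks it down with lysosomal proteases, saposin-like proteins and lysozymes, and makes yolk. FEM worms are described as having no oocytes to receive that yolk. Body wall muscle cells are formed before adulthood and are not replaced, and their sarcomeres contract through troponin and myosin.

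Levels are log2(normalized count + 1), and a change is days 4-5 minus day 3 on that scale, so that a change of 1 is close to 2-fold except in low genes, whose change it understates. The estimated depth was 16648187 to 31339965 reads in the libraries of days 4-5 and 14673062 to 23363292 in those of day 3, and 17328 to 18679 and 16827 to 19715 genes were detected. Sperm transcripts were present in every library: a set of 12 sperm markers, major sperm proteins not among them, averaged 10.72 to 11.41 on days 4-5 and 10.76 to 11.07 on day 3. Of the 17 oocyte markers none was at 0 in any library, although these worms are described as lacking oocytes. They averaged 10.27 to 10.87 on days 4-5 and 9.99 to 10.91 on day 3, close to the sperm markers. Among them perm-2 and perm-4 lay between 17.31 and 17.92. The yolk receptor rme-2 lay lower, between 8.11 and 9.31 on days 4-5 and between 7.78 and 9.19 on day 3. fem-3 did not pass the test, with 7.20 and 7.65 at 117 h and 7.37 and 7.39 at 137 h, against 7.37 at the lowest, 7.70 at the median and 7.93 at the highest on day 3, and its allele acts by gain of function, so its level does not check the label. The samples of 1 age are described as biological replicates, each a batch of worms. Replicates of 1 age correlated at 0.97 to 0.98 across genes, and no pair was identical. Over all pairs of the 10 libraries, replicates included, the range was 0.967 to 0.986, against 0.973 to 0.981 for replicates alone. Averages of replicate pairs and of pairs of different ages were not compared. The highest correlation was that of 89 h replicate 3 with 97 h replicate 2.

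A few libraries stood apart in the collagens that shape the cuticle at molts. The 21 genes of the body-shape list, collagens such as dpy-13, dpy-5, rol-6 and sqt-1, averaged 6.39 and 3.49 at 117 h and 4.92 and 4.03 at 137 h, against 3.54, 4.36 and 6.40 at 89 h and 4.39, 7.13 and 4.90 at 97 h. The list includes dpy-18, which codes for an enzyme that modifies collagens and lay at 10.14 to 10.55 on days 4-5 and 10.16 to 10.33 on day 3. The groups overlapped throughout, and the spread lay between replicates of 1 age: 117 h replicate 1, 89 h replicate 3 and 97 h replicate 2 were high, and 6 and 7 of these collagens were at 0 in 117 h replicate 2 and 89 h replicate 1. dpy-13 alone had 7.78 and 0.00 at 117 h and 7.26 and 3.71 at 137 h, against 3.58 at the lowest, 6.28 at the median and 9.41 at the highest on day 3. 97 h replicate 2 also had the most genes detected, 19715. Counts without these libraries are given beside the main lists.

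**Figure D1:**
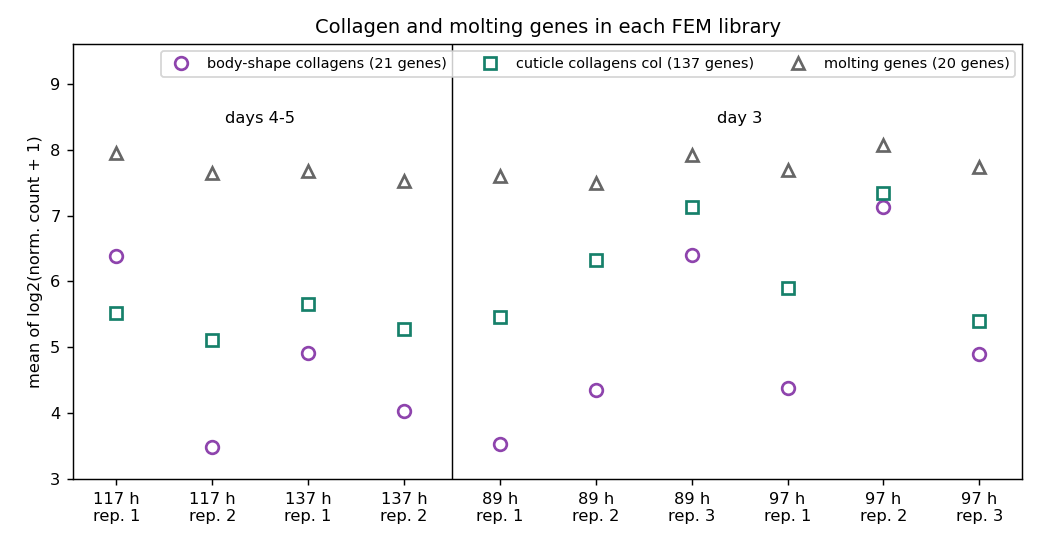
Mean level, as log2(normalized count + 1), of the 21 genes of the body-shape collagen list, dpy-18 included (circles), the 137 col collagens (squares) and the 20 molting genes (triangles) in each of the 10 FEM libraries, days 4-5 left of the line and day 3 right of it. The body-shape list reached 6.39 in 117 h replicate 1, 6.40 in 89 h replicate 3 and 7.13 in 97 h replicate 2, against 3.49 to 4.92 in the other libraries.

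Between days 4-5 and day 3, 466 of 16925 genes passed the threshold (limma, Benjamini-Hochberg adjusted p under 0.05), 2.75% of those tested. Of these, 169 were higher on days 4-5, 0.999%, and 297 were lower, 1.75%. The median change over all genes was -0.02, the median of the higher genes 1.06 and that of the lower genes -0.85, and 51.5% of the higher and 38% of the lower genes changed by at least 1. The 4 and 6 libraries did not overlap in 81 of the higher and 110 of the lower genes, where 1.6% and 1.49% of all genes tested were non-overlapping in those directions. The size of the list rested on a few libraries: the count was 209 without 117 h replicate 1, 226 without 137 h replicate 1 and 308 without 97 h replicate 3. It was 249 without the pair of day 3 libraries high in body-shape collagens, 234 of them among the 466, and 86 without those and 117 h replicate 1, 81 of them among the 466.

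**Figure D2:**
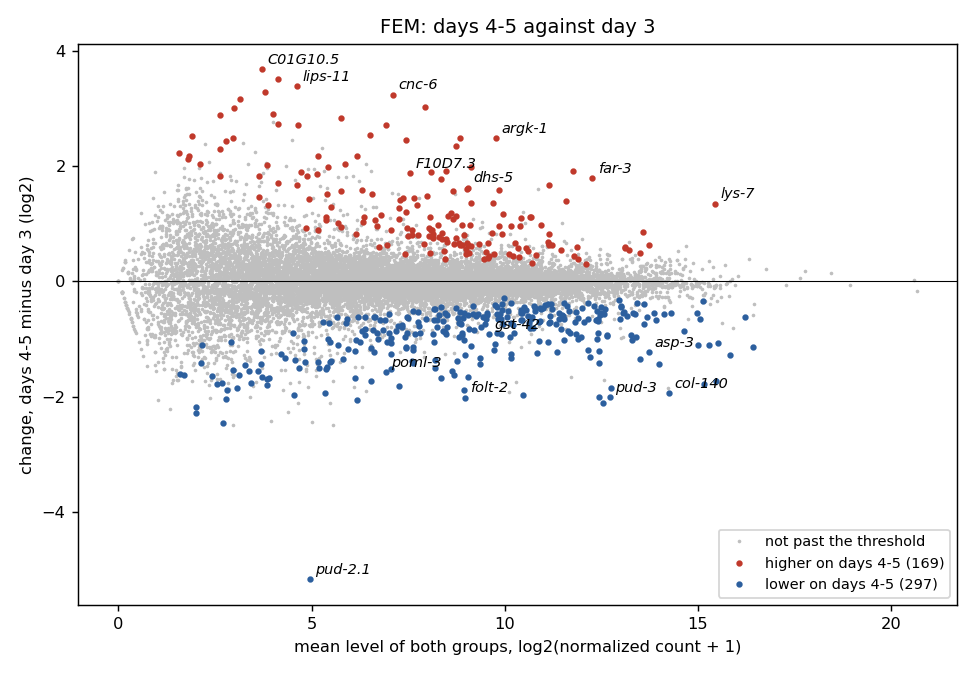
Change of each of the 16925 genes tested, days 4-5 minus day 3 in FEM (vertical, log2), against its mean level in both groups (horizontal, log2(normalized count + 1)). Red points are the 169 genes higher on days 4-5 and blue points the 297 lower ones, and pud-2.1 at -5.17 lies below all others.

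Against the same 6 day 3 libraries, 34 genes passed at 117 h, 0.201% of those tested, with 13 higher (0.0768%) and 21 lower (0.124%). At 137 h 679 passed, 4.01% of those tested, with 243 higher (1.44%) and 436 lower (2.58%). For the 169 genes the median change was 0.76 at 117 h and 1.31 at 137 h, and for the 297 genes it was -0.53 and -1.10. Both ages entered the choice of these genes, so the medians are a description. At 137 h the balance of directions depended on the scaling, with 347 higher and 306 lower after quantile normalization and 271 higher and 250 lower after median centring, in place of 243 and 436.

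The largest rises that separated all 4 libraries from all 6 were in a group of neighbors on chromosome V and in scattered single genes. C01G10.5, C01G10.4 and C01G10.17 lie next to each other at V, 15089076 to 15091114 (WBcel235). C01G10.4 had 5.89 and 4.54 at 117 h and 7.39 and 5.73 at 137 h, against 0.00 at the lowest, 2.56 at the median and 4.40 at the highest on day 3, a change of 3.51 ± 0.58 (SE, adjusted p = 0.000397). Its day 3 libraries ran from 0 to a clear signal, and the highest of them lay below the lowest library of days 4-5. C01G10.5 rose by 3.67 ± 0.65 (SE, adjusted p = 0.000829) and C01G10.17 by 1.68 ± 0.37 (SE, adjusted p = 0.00736).

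Among the well expressed genes, argk-1, an arginine kinase that buffers ATP through phosphoarginine, had 9.91 and 10.20 at 117 h and 12.02 and 11.90 at 137 h, against 5.64 at the lowest, 8.95 at the median and 9.81 at the highest on day 3, and rose by 2.48 ± 0.53 (SE, adjusted p = 0.00517). Its libraries at 137 h were the highest, and 89 h replicate 2 lay far below the other day 3 libraries. far-3, which codes for a fatty acid and retinol binding protein, had 13.16 and 12.65 at 117 h and 14.17 and 12.65 at 137 h, against 10.92 at the lowest, 11.27 at the median and 12.08 at the highest on day 3, and rose by 1.78 ± 0.28 (SE, adjusted p = 0.000186). It shares exonic bases with far-5 in the annotation. dhs-5, a short-chain dehydrogenase, had 9.49 and 9.65 at 117 h and 10.56 and 9.75 at 137 h, against 7.73 at the lowest, 8.24 at the median and 8.79 at the highest on day 3, a change of 1.62 ± 0.17 (SE, adjusted p = 5.93e-07). Both far-3 and dhs-5 were higher in every library of days 4-5 than in any of day 3. F10D7.3 on the X chromosome had 8.57 and 8.12 at 117 h and 9.06 and 8.22 at 137 h, against 6.29 at the lowest, 6.53 at the median and 7.31 at the highest on day 3, and rose by 1.87 ± 0.22 (SE, adjusted p = 3.30e-06). The neuropeptide receptor gene npr-20 rose by 1.83 ± 0.26 (SE, adjusted p = 9.23e-05), the sodium/calcium exchanger gene ncx-9 by 1.87 ± 0.47 (SE, adjusted p = 0.0203) and B0238.12 by 1.77 ± 0.22 (SE, adjusted p = 5.79e-06).

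Of the other rises chosen by the same rule, Y105C5B.3 changed by 2.90, C50D2.1 by 2.72 and F14H12.3 by 1.58. F55G11.4 rose by 1.67 ± 0.36 (SE, adjusted p = 0.00517), with 11.43 and 11.54 at 117 h and 11.44 and 13.56 at 137 h, against 9.64 at the lowest, 10.30 at the median and 11.02 at the highest on day 3, and 137 h replicate 2 was far above the other libraries of days 4-5. The piRNA gene 21ur-15387, at 1.58, lies within F55G11.4, and as the counting did not use strand, the reads of the pair cannot be told apart.

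**Figure D3:**
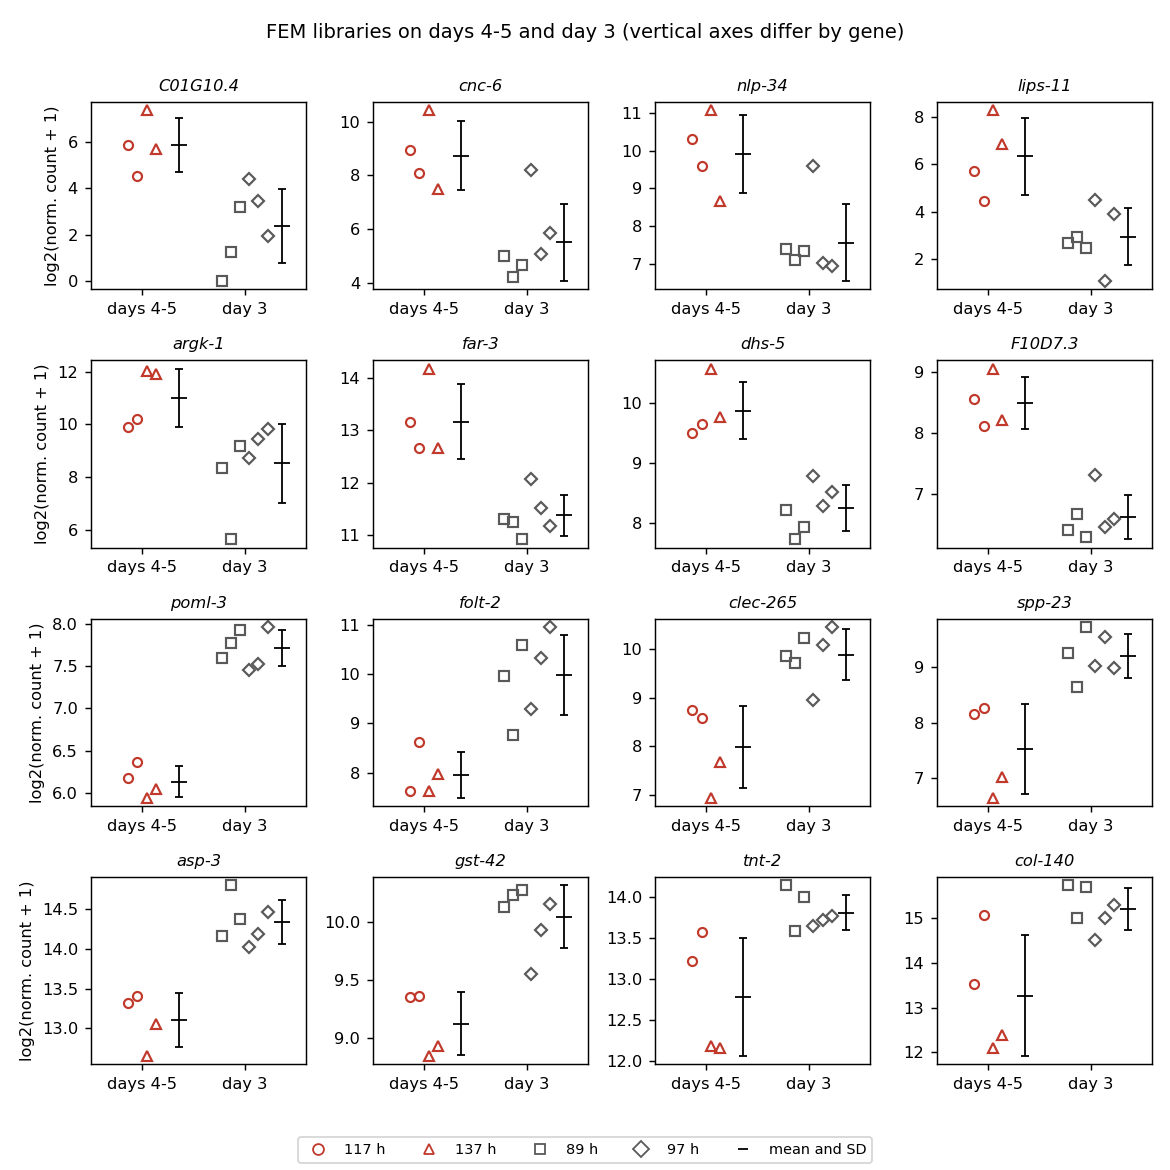
Level of 16 genes, as log2(normalized count + 1), in the 4 FEM libraries of days 4-5 (red, left) and the 6 of day 3 (gray, right), with the mean and SD of each group in black. The upper 8 genes rose and the lower 8 fell; poml-3 separates widely, from 5.94 to 6.36 on days 4-5 against 7.46 to 7.96 on day 3, whereas 97 h replicate 1 falls within the range of days 4-5 for cnc-6 and nlp-34.

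Several antimicrobial peptide genes rose. Of the 36 caenacin, fip-related and abf genes tested, 7 rose and 2 fell, 19.4% and 5.56% where all genes gave 0.999% and 1.75%, and their median change was 0.46. cnc-6, a caenacin, had 8.94 and 8.09 at 117 h and 10.42 and 7.47 at 137 h, against 4.23 at the lowest, 5.04 at the median and 8.19 at the highest on day 3, and changed by 3.23 ± 0.54 (SE, adjusted p = 0.00044). Of day 3, 97 h replicate 1 alone reached the range of days 4-5, and the other 5 libraries of day 3 lay well below it. cnc-4 rose by 1.99 ± 0.36 (SE, adjusted p = 0.00101), cnc-7 by 1.90 ± 0.51 (SE, adjusted p = 0.032) and fipr-24 by 2.01 ± 0.48 (SE, adjusted p = 0.0145), and abf-2, an antibacterial factor related to defensins that the naming rule did not include, rose by 1.37 ± 0.20 (SE, adjusted p = 0.000122). The members that fell were fipr-1 (-1.38, adjusted p = 0.00629) and fipr-2 (-0.86, adjusted p = 0.04). The counts were 6 higher and 1 lower without 97 h replicate 2, 4 higher and 1 lower without that library and 89 h replicate 3, and 2 higher and 0 lower without these and 117 h replicate 1.

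Neuropeptide-like genes gave 4 rises and 1 fall among 52 tested (7.69% and 1.92%), and the rises were all from a single run of neighbors, nlp-34, nlp-31, nlp-30 and nlp-29, at V, 3978825 to 3984847. These code for epidermal peptides known to be induced by fungal infection and wounding. nlp-34 had 10.32 and 9.58 at 117 h and 11.07 and 8.67 at 137 h, against 6.94 at the lowest, 7.22 at the median and 9.59 at the highest on day 3, a change of 2.35 ± 0.41 (SE, adjusted p = 0.000681). As for cnc-6, 97 h replicate 1 was the day 3 library that overlapped days 4-5. nlp-30 rose by 2.18 ± 0.47 (SE, adjusted p = 0.00524), nlp-31 by 1.89 ± 0.31 (SE, adjusted p = 0.000285) and nlp-29 by 1.59 ± 0.27 (SE, adjusted p = 0.000512), while nlp-26 fell by 0.78 (adjusted p = 0.0403). The FMRFamide-like neuropeptides gave 0 rises and 0 falls among 30 in limma (1 and 1 at an unadjusted p under 0.05), with a median of 0.00. Without all 3 libraries high in body-shape collagens no nlp gene passed in either direction, with 9 higher and 1 lower at an unadjusted p under 0.05.

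Lysozymes, which digest bacterial cell walls in the gut, split by member. Of 13 tested, 3 rose and 3 fell (23.1% each way), with a median of 0.28. lys-7 had 16.01 and 15.06 at 117 h and 16.43 and 16.98 at 137 h, against 14.53 at the lowest, 14.72 at the median and 15.11 at the highest on day 3, and rose by 1.34 ± 0.29 (SE, adjusted p = 0.00629). lys-2 moved the other way, with 12.44 and 11.76 at 117 h and 11.31 and 10.79 at 137 h, against 12.19 at the lowest, 12.86 at the median and 13.00 at the highest on day 3, a change of -1.18 ± 0.25 (SE, adjusted p = 0.00545). The invertebrate-type lysozymes ilys-3 and ilys-2 rose by 2.83 ± 0.71 (SE, adjusted p = 0.019) and 2.45 ± 0.69 (SE, adjusted p = 0.0432), and lys-8 and lys-1 fell by 0.57 (adjusted p = 0.00957) and 0.54 (adjusted p = 0.0404). The counts were 1 higher and 2 lower without 97 h replicate 2, 1 higher and 1 lower without that library and 89 h replicate 3, and 0 higher and 0 lower without these and 117 h replicate 1, where limma gave 4 higher and 3 lower at an unadjusted p under 0.05. After quantile normalization they were 3 higher and 1 lower.

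C-type lectins, a large family of secreted proteins of which many respond to bacteria, gave 14 falls and 2 rises among 146 tested (9.59% and 1.37%), with a median of -0.04. clec-265 had 8.74 and 8.58 at 117 h and 6.95 and 7.68 at 137 h, against 8.96 at the lowest, 9.97 at the median and 10.45 at the highest on day 3, and fell by 1.89 ± 0.33 (SE, adjusted p = 0.000587). clec-4 fell by 2.05 (adjusted p = 0.00366) and clec-67 by 1.62 (adjusted p = 0.002). The neighbors clec-63, clec-64, clec-65 and clec-66 (II, 12895638 to 12906644) all fell, from the abundant clec-63 (-1.07, adjusted p = 0.000135) to the barely detected clec-64 (-2.28, adjusted p = 0.0163). The rises were clec-146 (0.98, adjusted p = 0.0088) and clec-43 (1.52, adjusted p = 0.0321). The counts were 1 higher and 11 lower without 97 h replicate 2, 0 higher and 7 lower without that library and 89 h replicate 3, and 0 higher and 7 lower without these and 117 h replicate 1.

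Transthyretin-related genes, which code for small secreted proteins found in nematodes in large numbers, gave 10 rises and 1 fall among 57 tested (17.5% and 1.75%), with a median of 0.21. ttr-29 had 7.27 and 6.91 at 117 h and 7.78 and 7.57 at 137 h, against 5.90 at the lowest, 6.19 at the median and 6.69 at the highest on day 3, a change of 1.16 ± 0.19 (SE, adjusted p = 0.000327) with no overlap. ttr-26 (0.98, adjusted p = 0.00325), ttr-38 (0.95, adjusted p = 0.0423) and ttr-21 (0.64, adjusted p = 0.0308) rose and ttr-44 (-0.74, adjusted p = 0.018) fell. The count of rises was 4 without 97 h replicate 2 and 1 without all 3 libraries high in body-shape collagens.

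Smaller families had few calls. In the lipases 9.52% of those tested rose and 9.52% fell. The shares were 2.86% and 4.29% for the hedgehog-related and Patched-related genes and 5.41% and 2.7% for the insulin-like peptides. All genes gave 0.999% and 1.75%. lips-11, a lipase-related gene, had 5.73 and 4.44 at 117 h and 8.27 and 6.87 at 137 h, against 1.10 at the lowest, 2.82 at the median and 4.52 at the highest on day 3, and rose by 3.38 ± 0.53 (SE, adjusted p = 0.000201), and its family member lips-10 rose by 1.10 ± 0.16 (SE, adjusted p = 0.000101). The lysosomal lipase lipl-5 (-0.93, adjusted p = 0.0099) and lips-5 (-0.89, adjusted p = 0.0155) fell, so 2 of 21 lipases rose and 2 fell. Among 70 hedgehog-related and Patched-related genes, the Patched-related ptr-22 (2.54, adjusted p = 0.000691) and ptr-8 (0.95, adjusted p = 0.000397) rose, and the groundhog genes grd-3, grd-5 and grd-13 fell. grd-3 had 11.11 and 10.53 at 117 h and 10.57 and 10.75 at 137 h, against 11.57 at the lowest, 11.98 at the median and 12.35 at the highest on day 3, a change of -1.23 ± 0.19 (SE, adjusted p = 0.000186), with every library of days 4-5 below every library of day 3. Of 37 insulin-like peptide genes, ins-7, whose product activates the insulin receptor homolog DAF-2, rose (1.12, adjusted p = 0.0152), as did ins-4 (0.74, adjusted p = 0.014), while ins-13 (-1.68, adjusted p = 0.0284) fell. The DAF-2 pathway itself gave 0 rises and 0 falls among 28 genes of insulin, gonad-signal and AMPK signaling in limma, and 0 at an unadjusted p under 0.05. Without 97 h replicate 2 the counts were 1 higher and 0 lower for the insulin-like peptides, 2 higher and 2 lower for the lipases and 2 higher and 2 lower for the hedgehog and Patched list. Without all 3 libraries high in body-shape collagens they were 0 higher and 0 lower for the insulin-like peptides (2 and 2 at an unadjusted p under 0.05 in limma), 2 higher and 0 lower for the lipases and 0 higher and 2 lower for the hedgehog and Patched list, and with a class of the library codes in the sample titles as a term the insulin-like peptides had 0 higher and 0 lower ones.

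Further rises came singly or in small groups. pals-3 and pals-4, of a family with members in the response to intracellular pathogens, rose by 1.89 and 1.52, 2 of 32 tested. The infection response gene irg-6 rose by 2.04 ± 0.51 (SE, adjusted p = 0.0181), while C17H12.8 of the same p38 pathway list fell by 0.69 (adjusted p = 0.0474). Most of that list lay lower: of 13 genes tested 9 changed below 0 and 4 above, with a median of -0.69. In limma 5 of them were lower and 1 higher at an unadjusted p under 0.05. The extracellular superoxide dismutase sod-4 rose by 0.44 ± 0.10 (SE, adjusted p = 0.00773) and the glutathione peroxidase gene gpx-7 fell by 1.05 (adjusted p = 0.0238), the pair of calls among 25 superoxide dismutase, catalase and peroxidase genes. The metal transporter smf-1 rose by 0.53 ± 0.12 (SE, adjusted p = 0.00794). Of the prion-like genes pqn-36 (1.48), pqn-60 (1.27) and pqn-31 (0.96) rose and pqn-22 (-0.65) fell among 64. Cytochrome P450 genes gave 3 rises, led by cyp-34A7 (2.18, adjusted p = 0.0141) and cyp-32A1 (1.09, adjusted p = 0.00012), and 3 falls, led by cyp-25A1 (-1.19, adjusted p = 0.0013), among 69 (4.35% each way). Of 200 nuclear hormone receptor genes, nhr-202 (0.89) and nhr-11 (0.74) rose, 1% where all genes gave 0.999%, and none fell. UDP-glucuronosyltransferases gave 2 rises and 2 falls among 63 (3.17% each way), and MATH and BATH domain genes 2 and 2 among 80 (2.5% each way). Genes of metal handling gave 1 rise, smf-1, and 2 falls among 35 (2.86% and 5.71%). The shares were 6.25% and 0% for the pals genes, 4.69% and 1.56% for the prion-like genes and 4% each way for the superoxide dismutase list. All genes gave 0.999% higher and 1.75% lower, so several of these families lay near that background. Of all these families, the calls left without all 3 libraries high in body-shape collagens were 1 higher and 1 lower of the cytochrome P450 genes and 1 lower of metal handling, and without 97 h replicate 2 neither p38 pathway gene passed.

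The largest falls that separated the groups were spread over the genome. poml-3, related to the chaperone-like MEC-6, had 6.17 and 6.36 at 117 h and 5.94 and 6.04 at 137 h, against 7.46 at the lowest, 7.69 at the median and 7.96 at the highest on day 3, and fell by 1.58 ± 0.17 (SE, adjusted p = 8.17e-07), a gap wider than the range of either group. folt-2, a folate transporter, had 7.63 and 8.61 at 117 h and 7.62 and 7.98 at 137 h, against 8.77 at the lowest, 10.13 at the median and 10.95 at the highest on day 3, a change of -2.02 ± 0.55 (SE, adjusted p = 0.0339). The day 3 libraries of folt-2 spread widely, and its call was lost in all but 3 of the 10 fits that each left out 1 library. pud-3, named for its protein being more abundant in daf-2 mutants, changed by -2.01 ± 0.56 (SE, adjusted p = 0.0404), R09H3.3 by -1.98 ± 0.32 (SE, adjusted p = 0.000336), E02H9.7 by -1.68 ± 0.36 (SE, adjusted p = 0.00584) and T05E12.6 by -1.65 ± 0.36 (SE, adjusted p = 0.00609). F35F10.5 (-1.51), T16G12.1 (-1.42), C03A7.2 (-1.40) and Y51H4A.5 (-1.37) completed the list with the tRNA gene F22H10.t1 (-1.40) and F22H10.9 (-1.38), which overlaps it, so that the reads of the pair cannot be told apart.

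Several genes of lysosomal and intestinal digestion fell. Of 26 cathepsins and lysosomal peptidases, 4 fell and 0 rose (15.4% against 1.75% of all genes), with a median of -0.19. The count of falls was 3 without 97 h replicate 2, 2 without that library and 89 h replicate 3, 1 without these and 117 h replicate 1, and 2 after quantile normalization. asp-3, a lysosomal aspartyl protease, had 13.32 and 13.40 at 117 h and 12.65 and 13.06 at 137 h, against 14.02 at the lowest, 14.29 at the median and 14.80 at the highest on day 3, a change of -1.23 ± 0.22 (SE, adjusted p = 0.000968). The other falls were the aspartyl proteases asp-13 (-1.05, adjusted p = 0.00996), asp-5 (-0.66, adjusted p = 0.0361) and asp-1 (-0.62, adjusted p = 0.0123). Saposin-like genes, whose products permeabilize membranes, gave 3 falls among 22 (13.6%) and no rise. spp-23 had 8.15 and 8.27 at 117 h and 6.65 and 7.03 at 137 h, against 8.64 at the lowest, 9.15 at the median and 9.72 at the highest on day 3, a change of -1.68 ± 0.27 (SE, adjusted p = 0.000238), and spp-4 (-1.34, adjusted p = 0.00652) and spp-3 (-0.52, adjusted p = 0.00887) also fell. vha-6, the subunit that places the proton pump on the lumenal side of the intestine, fell by 0.63 (adjusted p = 0.00334) as the single call among 20 vacuolar ATPase genes, and gba-4, a glucocerebrosidase gene outside the naming rule, fell by 1.33 (adjusted p = 6.01e-06). Of the 13 intestine markers, 2 fell, vha-6 and asp-1, and their mean was 11.05 to 11.23 on days 4-5 and 11.15 to 11.36 on day 3. After quantile normalization neither vha-6 nor asp-1 passed, and limma then gave 0 falls among the intestine markers (3 at an unadjusted p under 0.05) and a median of 0.00.

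Of the genes of the mitochondrial genome, the TCA cycle and glycolysis, those that passed the test all fell. In the mitochondrial genome 5 of 18 genes tested fell and none rose (27.8%), with a median of -0.56 and all 18 below 0. nduo-3, a subunit of complex I, had 11.12 and 11.33 at 117 h and 10.66 and 10.95 at 137 h, against 11.51 at the lowest, 12.04 at the median and 12.39 at the highest on day 3, a change of -1.02 ± 0.23 (SE, adjusted p = 0.00878), and the other falls were ctc-2 (-0.63, adjusted p = 0.0142), nduo-1 (-0.56, adjusted p = 0.00558), ctb-1 (-0.56, adjusted p = 0.0111) and atp-6 (-0.55, adjusted p = 0.0202). Genes in the nucleus for oxidative phosphorylation gave 2 falls among 50 (4%, where all genes gave 1.75%), asb-2 (-0.52) and Y71H2AM.5 (-0.32), with a median of -0.22. Their mean level was 11.45 and 11.90 at 117 h and 11.32 and 11.31 at 137 h, against 11.65 to 11.77 on day 3, so the 117 h libraries lay on either side of day 3 and the 137 h libraries below it. The mitochondrial count was 1 without the pair of day 3 libraries high in body-shape collagens and 0 without these and 117 h replicate 1, where 7 had an unadjusted p under 0.05.

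In the TCA cycle and adjoining steps 4 of 34 genes fell and none rose (11.8%), with a median of -0.16. idhg-2, a subunit of the NAD-dependent isocitrate dehydrogenase, had 8.79 and 8.93 at 117 h and 8.11 and 7.89 at 137 h, against 9.09 at the lowest, 9.54 at the median and 9.67 at the highest on day 3, a change of -1.02 ± 0.18 (SE, adjusted p = 0.000587) and no overlap. pck-1 (-0.43, adjusted p = 0.017), phosphoenolpyruvate carboxykinase, mdh-1 (-0.40, adjusted p = 0.012), malate dehydrogenase, and sucl-1 (-0.40, adjusted p = 0.00517), succinyl-CoA ligase, fell by less. In glycolysis 3 of 19 fell (15.8%), the glyceraldehyde-3-phosphate dehydrogenases gpd-2 (-0.57, adjusted p = 0.00384) and gpd-3 (-0.44, adjusted p = 0.0232) and the aldolase aldo-1 (-0.54, adjusted p = 0.00719). Beta-oxidation gave 2 rises, cpt-4 (1.44, adjusted p = 0.0203) and acs-3 (0.65, adjusted p = 0.0422), and 3 falls, acdh-9 (-0.60, adjusted p = 0.00156), acox-1.4 (-0.43, adjusted p = 0.0357) and acs-1 (-0.43, adjusted p = 0.0193), among 63 (3.17% and 4.76%, where all genes gave 0.999% and 1.75%). In the propionate pathways 0 rose and 0 fell of 11 in limma, although 9 had an unadjusted p under 0.05, all lower, and the smallest p-values were those of mce-1 (-0.38, adjusted p = 0.0542) and pcca-1 (-0.30, adjusted p = 0.0637). After all 3 libraries high in body-shape collagens were left out, 1 TCA cycle gene and 0 glycolysis genes passed in limma (3 at an unadjusted p under 0.05), and after quantile normalization 0 glycolysis genes passed (7 lower at an unadjusted p under 0.05). Beta-oxidation gave 0 higher and 1 lower without 97 h replicate 2 and 0 higher and 0 lower without all 3.

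Breakdown of tryptophan, phenylalanine and tyrosine held 5 falls among 20 genes and no rise (25%), with a median of -0.27. gst-42, the maleylacetoacetate isomerase of tyrosine breakdown, had 9.35 and 9.36 at 117 h and 8.84 and 8.93 at 137 h, against 9.55 at the lowest, 10.14 at the median and 10.27 at the highest on day 3, a change of -0.92 ± 0.11 (SE, adjusted p = 5.97e-06). hpd-1, 4-hydroxyphenylpyruvate dioxygenase of the same pathway, had 11.83 and 11.97 at 117 h and 11.56 and 11.47 at 137 h, against 12.05 at the lowest, 12.52 at the median and 12.64 at the highest on day 3, a change of -0.70 ± 0.10 (SE, adjusted p = 0.000113). Both kept every library of days 4-5 below every library of day 3, and both passed in all 10 fits that left out a library. The tyrosine aminotransferase tatn-1, the kynureninase kynu-1 and the kynurenine monooxygenase kmo-1 fell by 0.90, 0.66 and 0.58, and the count of falls was 2 without 97 h replicate 2. Glutathione S-transferases, gst-42 counted among them, gave 4 falls and no rise among 46 (8.7%), the others being gst-10 (-1.06), gst-13 (-0.79) and gst-27 (-0.72), and 2 without 97 h replicate 2. Single falls elsewhere in metabolism were the fatty acid elongase elo-6 (-0.89, adjusted p = 0.0183), the cystathionine lyase homolog cbl-1 (-0.89, adjusted p = 0.00884), the glycogen synthase gsy-1 (-0.48, adjusted p = 0.0299) and the trehalase tre-4 (-0.48, adjusted p = 0.0202), none of which passed without all 3 libraries high in body-shape collagens.

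Sarcomere genes were lower at 137 h than on day 3. Of 34 muscle sarcomere genes 6 fell and none rose over days 4-5 (17.6%), with a median of -0.24. Their mean level was 11.78 and 12.11 at 117 h and 11.46 and 11.35 at 137 h, against 11.71 to 12.19 on day 3, so both 117 h libraries lay inside the day 3 range and both 137 h libraries below it. At 137 h 15 of the 34 fell, where 2.58% of all genes did. tnt-2, a troponin T, had 13.22 and 13.58 at 117 h and 12.19 and 12.16 at 137 h, against 13.59 at the lowest, 13.74 at the median and 14.14 at the highest on day 3, a change of -1.02 ± 0.19 (SE, adjusted p = 0.00169). The libraries at 117 h lay just below the day 3 range and those at 137 h lay far below it. unc-27 (-0.74, adjusted p = 0.00175) and tni-3 (-0.57, adjusted p = 0.0311), troponins I, mup-2 (-0.59, adjusted p = 0.00794), a troponin T, mlc-3 (-0.60, adjusted p = 0.00419), a myosin light chain, and unc-15 (-0.57, adjusted p = 0.0276), paramyosin, were the other falls. The difference between 137 h and 117 h itself did not pass for these genes, with adjusted p from 0.103 to 0.377, and without all 3 libraries high in body-shape collagens no sarcomere gene passed over days 4-5, with 6 at an unadjusted p under 0.05.

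Some cuticle collagens fell, and their number depended on the libraries kept. Of 137 col genes 19 fell and none rose (13.9%), with a median of -0.86. col-140 had 13.53 and 15.08 at 117 h and 12.10 and 12.38 at 137 h, against 14.51 at the lowest, 15.16 at the median and 15.74 at the highest on day 3, a change of -1.94 ± 0.33 (SE, adjusted p = 0.000558). Its libraries at 137 h and 117 h replicate 1 lay below all of day 3, while 117 h replicate 2 lay inside the day 3 range. col-80 (-2.11, adjusted p = 0.00902) and col-179 (-1.97, adjusted p = 0.00215) fell by similar amounts, col-155 fell with no overlap by 1.52 ± 0.29 (SE, adjusted p = 0.00141), and col-19, a marker of the adult epidermis, fell by 1.41 (adjusted p = 0.0205). Body-shape collagens gave 0 rises and 0 falls in limma, and 0 had an unadjusted p under 0.05. Of 13 epidermis markers, col-19 and the GATA factor gene elt-3 (-0.75, adjusted p = 0.0211) fell, and the list averaged 6.11 to 7.10 on days 4-5 and 5.96 to 7.49 on day 3. Neither marker passed without 97 h replicate 2 or with the library code class as a term. The count of falling col genes was 17 without 97 h replicate 2, 14 without that library and 89 h replicate 3, and 0 without these and 117 h replicate 1, where 23 were lower and 1 higher at an unadjusted p under 0.05. The median was -0.52, -0.35 and -0.50 in these fits.

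**Figure D4:**
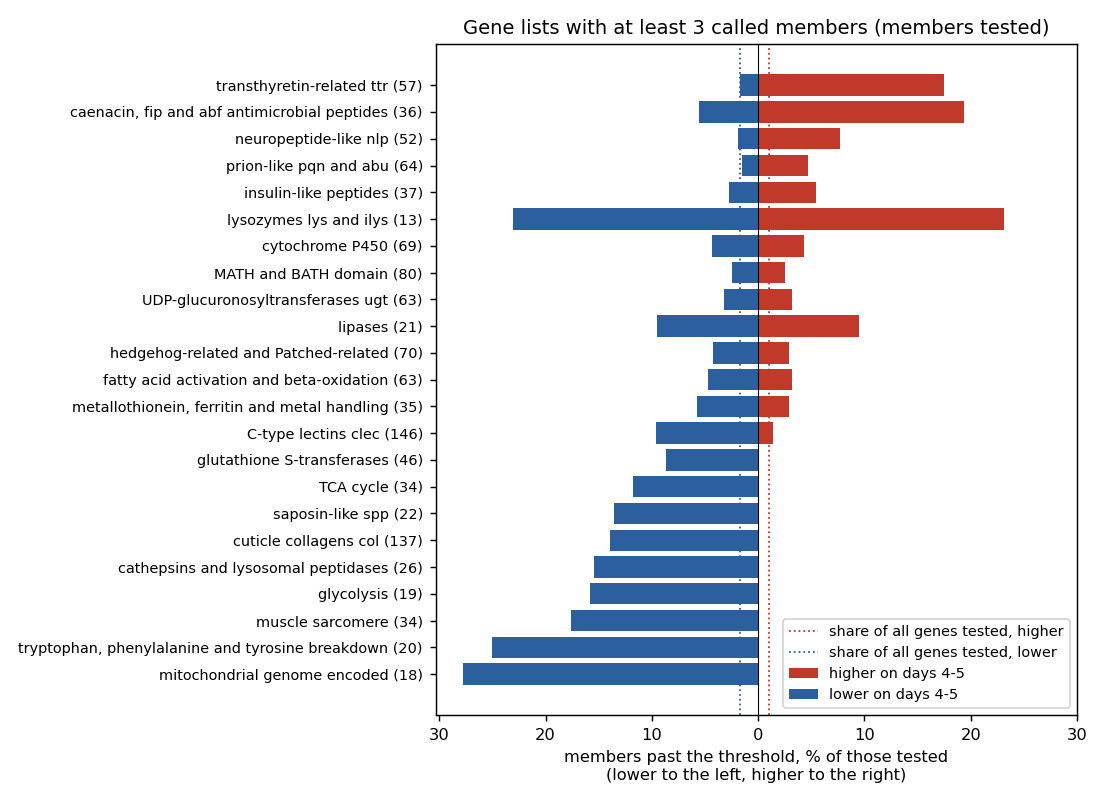
Share of tested members past the threshold (horizontal, percent) in each gene list with at least 3 called members, days 4-5 against day 3 in FEM, with the number of members tested in parentheses. Bars to the right are members higher on days 4-5, bars to the left lower ones, and dotted lines give the shares over all genes, 0.999% and 1.75%; lysozymes reach 23.1% each way and mitochondrially encoded genes 27.8% to the left.

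Lists for the germline and for protein synthesis and turnover gave no call. None passed of the 29 germline, 17 oocyte and 12 sperm markers, the 31 major sperm proteins, the 38 replication and cell cycle genes, the 80 cytosolic and 66 mitochondrial ribosomal proteins, the 32 aminoacyl-tRNA synthetases, the 33 proteasome subunits or the 35 chaperones, and the medians of these lists lay between -0.08 and 0.14. In each of these lists 0 members also had an unadjusted p under 0.05, where 841 genes in all were higher and 1099 lower at that level. The fit took its spread from all 45 libraries, those of GEM with its variable gonad included. A lack of calls thus does not show that these levels were unchanged. With the FEM libraries of the groups compared fitted alone, 399 genes passed in all, but the counts of these lists in that fit were not taken. The 176 F-box genes tested and the 29 autophagy genes gave no call either, with 16 and 0 lower and 9 and 3 higher at an unadjusted p under 0.05. The 6 vitellogenins, the yolk proteins, gave no call (1 at an unadjusted p under 0.05) and a median of -0.38. vit-1 had 15.48 and 16.40 at 117 h and 15.00 and 15.15 at 137 h, against 15.36 at the lowest, 16.48 at the median and 16.76 at the highest on day 3, a change of -0.82 ± 0.29 (SE, adjusted p = 0.148), so its groups overlapped. Among small heat shock proteins hsp-12.6 had 4.44 and 2.52 at 117 h and 5.71 and 5.48 at 137 h, against 0.00 at the lowest, 3.07 at the median and 4.75 at the highest on day 3 (change 1.72, adjusted p = 0.0862).

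By position, the X chromosome had 66 of 2192 tested genes lower (3.01%) and 24 higher (1.09%). Chromosome V had 75 lower and 51 higher of 3252 (2.31% and 1.57%), and chromosome I the fewest, 19 and 12 of 2473 (0.768% and 0.485%). The median change was between -0.02 and 0.00 on the 6 chromosomes. Besides the 2 runs on V that rose and the clec run on II that fell, runs of at least 3 neighboring genes fell at IV, 6015195 to 6033639 (C46G7.2, C46G7.1 and pqn-22), and at V, 18444418 to 18465426 (ZK228.1, ZK228.3 and ZK228.4), which made 5 in all.

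Within the groups, 6 genes differed between 137 h and 117 h, 0.0355% of those tested. fbxa-143, an F-box gene, was higher at 137 h by 2.50 (adjusted p = 0.0206), and spp-17 (-2.50), F35F10.6 (-2.36), T28D6.3 (-1.90), col-181 (-1.72) and the potassium channel twk-18 (-1.02) were lower. spp-17, a saposin-like gene, had 10.59 and 12.35 at 117 h and 9.38 and 8.56 at 137 h, against 10.24 at the lowest, 11.35 at the median and 11.46 at the highest on day 3, so that 117 h replicate 1 lay inside the day 3 range, 117 h replicate 2 above it and both 137 h libraries below it. These genes were named because they were so few, after their values were seen. The count was 78 without 117 h replicate 1 and 0 without 137 h replicate 2 (573 at an unadjusted p under 0.05), and with all libraries 1099 genes had an unadjusted p under 0.05. Between 97 h and 89 h a single gene passed, 0.00591% of those tested, pud-2.1, at -7.72 (adjusted p = 0.00222). pud-2.1 had 2.70, 4.56 and 3.78 at 97 h, against 11.34, 11.40 and 11.47 at 89 h, and 2.80 and 3.78 at 117 h and 0.91 and 2.01 at 137 h. The 97 h libraries lay close to those of days 4-5 and the 89 h libraries far above, which is what its change over days 4-5 (-5.17) averages. pud-2.1 belongs to a family of near-identical copies among which reads can be split.

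The same genes were followed in FEM libraries that the comparison did not use, those of day 10 (257 h) against day 2 (65 h and 73 h). Of the 169 genes higher on days 4-5, 78.7% were also higher on day 10 than on day 2 and 4.73% lower, where 18% and 18.1% of all genes were. Of the 297 lower genes, 93.3% were lower and 0.673% higher. Their medians were 1.89 and -2.69, where all genes had 0.07. Against the levels of days 4-5, 250 of the 297 lower genes had both day 10 libraries further down, and 91 of the 169 higher genes had both further up. Not every change went on: in 26 of the 169 both day 10 libraries lay below the day 3 mean, and the same return was seen in 5 of the 297. For the counts by both day 10 libraries the share over all genes was not taken, so they only describe these genes. far-3 averaged 9.61 at 65 h and 11.59 at 97 h, then 13.41 at 137 h and 9.39 at 257 h. lys-7 averaged 13.07, 14.94, 16.71 and 13.51 at these ages, and argk-1 5.68, 9.32, 11.96 and 8.03. Of the ages measured, far-3, lys-7 and argk-1 were thus highest at 137 h. nlp-34 and F10D7.3 were higher still at 257 h, with 11.12 and 10.73, and asp-3 and tnt-2 lower still, with 10.94 and 10.20.

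**Figure D5:**
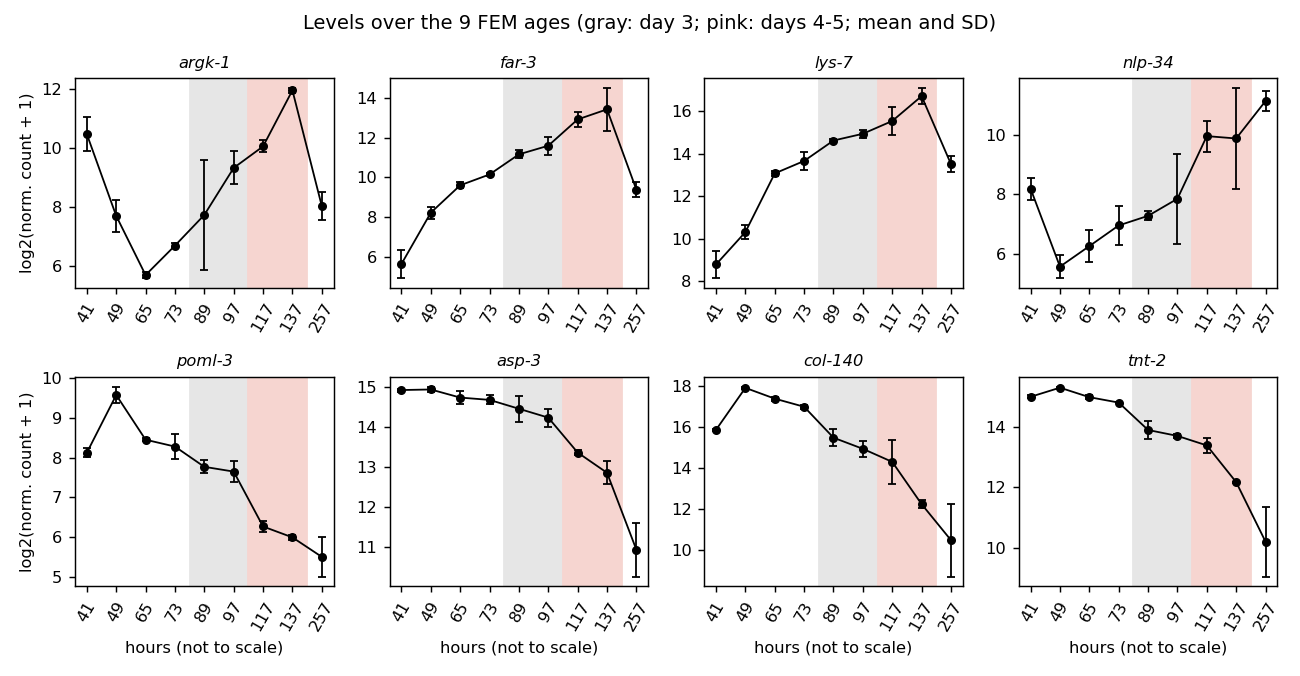
Mean and SD of the level, as log2(normalized count + 1), of 8 genes at the 9 FEM ages (horizontal, hours, evenly spaced and not to scale; 2 or 3 libraries each), with day 3 shaded gray and days 4-5 pink. argk-1, far-3 and lys-7 have their highest mean at 137 h, which for far-3 rests on 1 library. nlp-34 goes on to 11.12 at 257 h, and the lower row falls on to 257 h, col-140 to 10.48.

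In GEM, whose libraries are separate from those of FEM, the same ages gave 6370 calls (37.6% of genes tested, 5346 higher, 1024 lower), and the median change over all genes was 0.29, or 0.07 after quantile normalization, when 3270 genes passed, 1644 higher and 1626 lower. Of the 169 genes higher in FEM, 62.1% were higher in GEM and none lower, where 31.6% and 6.05% of all genes were. Of the 297 genes lower in FEM, 76.8% were lower in GEM and 0.673% higher. The difference between the strains passed for 2672 genes, 15.8% of those tested (92 with a higher change in FEM, 0.544%, and 2580 with a lower one, 15.2%), and this count depended on the processing: it was 207 (120 and 87) after quantile normalization, 12 when the groups compared were fitted alone, and 6 to 4998 when single libraries were left out. Among the genes called in FEM, the difference passed for 16 of 169 and 20 of 297, and for 16 and 6 after quantile normalization.

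Of single genes, R09H3.3 changed by -1.98 in FEM and by 1.10 in GEM, where it averaged 5.67 and 4.50 on days 4-5 and on day 3, and the difference was -3.08 (adjusted p = 0.00114). F59A1.15 changed by -0.04 in FEM and 2.36 in GEM (adjusted p of the difference = 0.00419), and spp-21 by -0.12 in FEM and 3.80 in GEM (adjusted p of the difference = 0.0229). Y32G9A.5, ZK355.3, F49C5.4, Y18H1A.14 and C07G1.7 also had a lower change in FEM, and T16G1.6 a higher one, 2.52. Of the rises named above, the difference passed for F10D7.3, F14H12.3, ncx-9 and npr-20, with FEM minus GEM differences of 0.97, 1.39, 2.05 and 1.34. For lys-7, asp-3 and poml-3 the FEM changes of 1.34, -1.23 and -1.58 stood beside GEM changes of 1.44, -1.51 and -1.26, with adjusted p of the difference of 0.925, 0.658 and 0.426.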

How the data were processed

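RNA from whole worms was sequenced single-end without strand, so genes that overlap share reads. The authors trimmed reads with Trim Galore 0.4.4, aligned them with HISAT2 2.1.0 to WBcel235, counted them per gene in SeqMonk with isoforms merged and scaled the counts with DESeq2. The deposited values are on a natural log scale, ln(normalized count + 1), to 2 decimals, as read from the values themselves, for 25985 genes in 45 libraries. They were divided by ln 2 to give log2 values. Low values were whole multiples of a step that gave each library's depth, but the rounding left no whole reads for higher genes, so no count test was run.

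Groups were taken from the labels by strain and age, and replicates of an age were numbered in accession order. All 45 libraries entered a limma 3.58.1 fit (R 4.3.3) with a mean for each of 18 groups and an empirical Bayes trend, over the 16925 genes whose deposited values averaged 1 or more, with Benjamini-Hochberg adjustment at 0.05. The change was the mean of 117 h and 137 h minus the mean of 89 h and 97 h. The fit was tested on simulated data with independent noise and the same spread for a gene in all 45 libraries. Libraries that stand apart, as seen here, were not simulated. Positions and overlaps came from WBcel235, release 115, to which 23897 names matched; 11 names had been turned into dates and were left as they stand.

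Named genes were the 15 largest non-overlapping rises and falls past the threshold with a higher group mean of at least 5, up to 4 called members per list and direction (2 with the smallest p in lists without a call), the 10 largest differences between strains with a higher group mean of at least 5, and fem-3, gon-2 and gem-1. abf-2, gba-4, col-140, kmo-1, atp-6, tni-3, unc-15, clec-63, dpy-13, dpy-5, rol-6, sqt-1 and the genes that differed between 117 h and 137 h were added after their values were seen. The comparison and the gene lists were chosen with earlier results of these data known. Alternatives changed the filter, scaling, pseudocount, moderation, libraries and ages, as given at the end.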

Additional observations from a re-analysis of the deposited data

Results flagged for a closer look

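Of 88 groups of values examined for a library far from the rest of its group, 8 had one. Chance gives about 1 in 20 for independent groups. These groups included genes picked from the same data and genes that share reads, so the count is no test against that rate. On days 4-5, 137 h replicate 2 was far above the other 3 libraries for F55G11.4 at 13.56, against 11.43 to 11.54 in the others, and for the piRNA gene 21ur-15387 within it at 8.86, against 6.39 to 6.64. The 12 sperm markers averaged 11.41 in 117 h replicate 2, against 10.72 to 10.79 in the other libraries of days 4-5. On day 3, 89 h replicate 2 was low for argk-1 at 5.64, against 8.35 to 9.81 in the others, and for F14H12.3 at 8.34, below the other 5 libraries, which reached 9.32. C50D2.1 was at 0.00 in 89 h replicate 1, against 2.73 to 3.97, and F10D7.3 at 7.31 in 97 h replicate 1, against 6.29 to 6.67. The number of genes detected was 19715 in 97 h replicate 2, against 16827 to 17872 in the other day 3 libraries.

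The change differed between strains, by the test of the difference itself in limma, for 14 of the named genes, given as the FEM change minus the GEM change in log2. It was lower in FEM for pud-2.1 (-5.73), spp-21 (-3.92), R09H3.3 (-3.08), Y32G9A.5 (-3.08), ZK355.3 (-2.49), F49C5.4 (-2.45), Y18H1A.14 (-2.41), F59A1.15 (-2.40) and C07G1.7 (-2.38). It was higher in FEM for T16G1.6 (2.52), ncx-9 (2.05), F14H12.3 (1.39), npr-20 (1.34) and F10D7.3 (0.97). The naming rule took 10 genes because they passed this same test, so the count of 14 only describes the named genes. The calls of this test depended strongly on the libraries and the processing, as given below.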

How the results depend on the processing

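No paired analysis was possible because the titles carry library codes and no replicate numbers. What the codes mark is not given, and the highest class of codes belonged to 1 of 4 libraries of days 4-5 and 4 of 6 of day 3, so a code class was tried as a term and gave 344 genes between these groups, 325 of them among the 466. No named gene that passed between days 4-5 and day 3 turned its direction under any alternative run, but of 165 that passed, 131 no longer did without all 3 libraries high in body-shape collagens, 130 with day 3 as 97 h only, 114 with the ages pooled, 98 without 117 h replicate 1 and 87 without 137 h replicate 1. The count of 466 genes was 151 with the ages pooled and the 10 libraries fitted alone, and 92 with day 3 as 97 h only, against 363 with day 3 as 89 h only. It was 209 to 544 when 1 library was left out, with 209 without 117 h replicate 1, 226 without 137 h replicate 1 and 308 without 97 h replicate 3, and it stayed within 1.5 times under the other alternatives planned. Leaving out both day 3 libraries high in body-shape collagens, chosen after seeing the data, gave 249, and leaving out 117 h replicate 1 as well gave 86. In these same fits the strain difference had 486 and 5 calls, 117 h against day 3 had 10 and 5, 137 h against day 3 had 430 and 450, 97 h against 89 h had 3 and 4, and 137 h against 117 h had 55 in the fit without all 3. The strain difference of 2672 genes was 12 with only the groups compared in the fit, 207 after quantile normalization, where 58.0% of calls were higher in FEM in place of 3.44%, and 6 to 4998 without 1 library: 6 without 117 h replicate 1 or 137 h replicate 1 of FEM or 117 h replicate 1 of GEM, 7 without GEM 137 h replicate 1, 8 without GEM 97 h replicate 2, 120 without GEM 89 h replicate 2, 698 without GEM 89 h replicate 1, 1033 without FEM 137 h replicate 2, 1538 without FEM 97 h replicate 1, 1600 without FEM 89 h replicate 3 and 4998 without GEM 89 h replicate 3. The 34 genes of 117 h against day 3 were 7 with the library code class as a term, 15 with a mean of at least 3, 20 after median centring, 14 without a trend, 3 with only the groups compared, 11 after quantile normalization and 7 to 55 without 1 library. The 679 of 137 h against day 3 were 222 to 832 without 1 library, with 222 without 137 h replicate 1 and 259 without 137 h replicate 2. The 6 of 137 h against 117 h were 20 with a mean of at least 3, 3 after median centring, 20 with no filter, 0 with only the groups compared (938 at an unadjusted p under 0.05 in limma), 26 with a pseudocount of 8 and 0 to 78 without 1 library. The single gene of 97 h against 89 h was joined by others with no filter (7 in all), was lost with a mean of at least 3 (0, and 257 at an unadjusted p under 0.05), and the count was 1 to 3 without 1 library. The cause of these shifts was not tested. Depth limits the low genes, whose change the pseudocount understates.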
